A study of Mus musculus and Homo sapiens with 12 samples.

Results

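The genes described here are 43 lysosomal genes, taken by name: hydrolases and their activators, proteins of the lysosomal membrane, and 4 genes of lysosomal control and cargo delivery. A gene was a member when its symbol, compared in capitals, was on that list. The rule itself uses no measured value, but the list was drawn up with earlier results of these data known. Of these, 43 were among the 23201 genes of the mouse table and 42 among the 18190 genes of the human one; NEU1 was not analysed here in the human model. RNA sequencing covered 12 samples, 3 biological replicates in each of 4 groups. The mouse pancreatic ductal carcinoma line KPC was set against KPC LM2, the line obtained from it after 2 generations of selection for liver metastasis. The human model used PANC1, an established line of the same cancer, and PANC1 LM3, derived from it over 3 such generations. All 4 groups carry the genotype label WT, with no further allele given, and in every group 500000 cells went into the spleen (day 1) and tumours of the liver were taken later (day 21). Tumours are the RNA source in the protocols, whereas the titles name cells, so the labels do not settle whether host tissue was in the samples, and in bulk RNA fewer cells of a type and less RNA per cell cannot be told apart. Age and strain of the animals are not given in the labels used here.

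Lysosomes are acidic compartments in which many hydrolases break down proteins, glycans, sulfated sugars and lipids delivered by endocytosis and autophagy. Most of these enzymes receive a mannose 6-phosphate tag in the Golgi, are carried by mannose 6-phosphate receptors, and work at the low pH kept by a proton-pumping ATPase. The transcription factors TFEB, TFE3 and MITF bind E-box elements in many lysosomal promoters, and in pancreatic ductal carcinoma this family is known for driving lysosome and autophagy genes.

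Each model came as 1 table of the authors' own comparison, with 1 row per gene. The columns used here hold no value per library, so replicate values, their overlap between groups and the depth of each sample cannot be given, and the errors after ± are the standard errors (SE) the authors listed on the log2 scale. Nothing in the tables says which line is the numerator. Each value keeps its listed sign, positive or negative, and no sign is read as higher in the parental or in the selected line. A gene was called when the Wald test's adjusted p in the authors' deposited table was under 0.05. The mean normalised count, called the mean count below and given in parentheses after many values, stands for the level of a gene over the libraries of its model. It is not divided by gene length, so it shows how much data is behind a value and does not rank genes. Ductal keratins were abundant in both models, with mean counts in the authors' deposited tables of 6663 for Krt19 and 10742 for Krt8 in KPC, and 15012 for KRT19 and 49702 for KRT8 in PANC1. In the authors' deposited table for PANC1 these epithelial genes moved with the comparison, with KRT8 at -4.35 ± 0.06, KRT19 at -3.79 ± 0.05 and KRT18 at -3.35 ± 0.05, folds from 10.2 to 20.4, and EPCAM, an epithelial adhesion molecule, at 0.97 ± 0.10. In KPC the authors' deposited table gave Epcam at -1.14 ± 0.28 (adjusted p = 0.00158) and called none of Krt8, Krt18 and Krt19. Their part in the lysosomal values was not tested. Hepatocyte markers were tested for 7 of 12 genes in KPC, where the authors' deposited table gave Alb at 10.4 and Apob at 9009, and 3 of 12 were tested in PANC1. The marker lists hold names from both species, so some names cannot occur in a given model. PANC1 values are for human gene symbols, so host cells of another species need not show there.

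The E-box elements are shown first because TFEB, TFE3 and MITF bind such sequences. The letters alone do not say which factor binds them, and no binding was measured here. Promoter windows of mouse genes, each 300 bases from 250 before to 50 after a RefSeq start site (GRCm38.p6), were found for 40 of the 43 members. Motifs were searched on both strands; all of them are nested in each other and each is its own reverse complement except TCACGTG. The core TCACGTG was present in 10 of 40 members (25%) and in 4.29% of 27025 genes, the longer palindrome TCACGTGA in 5 members (12.5%) against 1.12% of genes, and the bare E-box CACGTG in 12 members (30.0%) against 8.09% of genes. The 10-base form GTCACGTGAC was present in 1 member, Cln3, and in 0.37% of all genes. A match describes these letters in this window only. The 8 stretches below belong to the membrane gene Cln3, 2 cathepsins, 4 glycosidases and a sulfatase, read 5′ to 3′ along the gene's strand with the motif in capitals. They lie at chr7:126583338-126583371 (minus strand) for Cln3, chr2:164833748-164833779 (plus) for Ctsa, chr7:142387907-142387938 (minus) for Ctsd, chrX:134601214-134601245 (minus) for Gla, chr9:114401017-114401047 (plus) for Glb1, chr11:101070008-101070038 (plus) for Naglu, chr11:119267810-119267840 (plus) for Gaa and chr15:89477423-89477453 (minus) for Arsa.
Cln3: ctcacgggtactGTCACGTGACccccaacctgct
Ctsa: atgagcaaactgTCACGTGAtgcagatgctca
Ctsd: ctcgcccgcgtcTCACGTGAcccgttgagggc
Gla: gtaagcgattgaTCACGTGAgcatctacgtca
Glb1: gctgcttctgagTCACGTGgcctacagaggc
Naglu: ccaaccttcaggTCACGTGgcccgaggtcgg
Gaa: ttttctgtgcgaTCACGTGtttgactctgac
Arsa: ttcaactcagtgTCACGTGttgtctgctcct
The marked motif's first base lay 13 bases before the start site in Ctsa, 17 in Arsa, 49 in Glb1, 74 in Naglu, 99 in Ctsd, 123 in Cln3, 141 in Gaa and 228 in Gla. The windows of Cln3, Ctsa, Ctsd and Gla each held 2 copies of CACGTG, and only the first copy of the longest form is marked. Lamp1 and Mcoln1 were the other 2 members with the core.

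Between KPC and KPC LM2, 10 of the 43 lysosomal genes were called with a positive fold change and 2 with a negative one, and 30 of 43 (69.8%) were listed above 0, against 45.8% of all tested genes and 73.5% of those with a mean count of 64 or more. Among all 20050 tested genes 10.4% were called, 5.77% positive and 4.60% negative. Fold changes in this table moved with level: genes with a mean count of 64 or more had a median of 0.22 against -0.08 over all tested genes, and 10.6% of them were called positive and 2.11% negative. Of the 36 members at that level, 10 were called positive (27.8%) and 1 negative (2.78%). The members' median was 0.36 on the log2 scale, with quartiles of -0.06 and 0.59 and a median SE of 0.25. After the fold changes were recentred on the genes at 64 or more, the members' median was 0.14 and the calls split into 6 positive (14.0%) and 4 negative (9.30%), with 2.52% and 8.19% of all genes called, so the negative share was near that of all genes. After the running median over level was subtracted, 4 members (9.30%) were positive and 3 (6.98%) negative, against 2.92% and 2.73% of all genes. With a t distribution of 4 degrees of freedom in place of the normal reference, 0 members and 0 of all genes passed, with 12 members and 2132 genes at an unadjusted p under 0.05, while the authors' deposited table lists 12 members called.

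**Figure D1:**
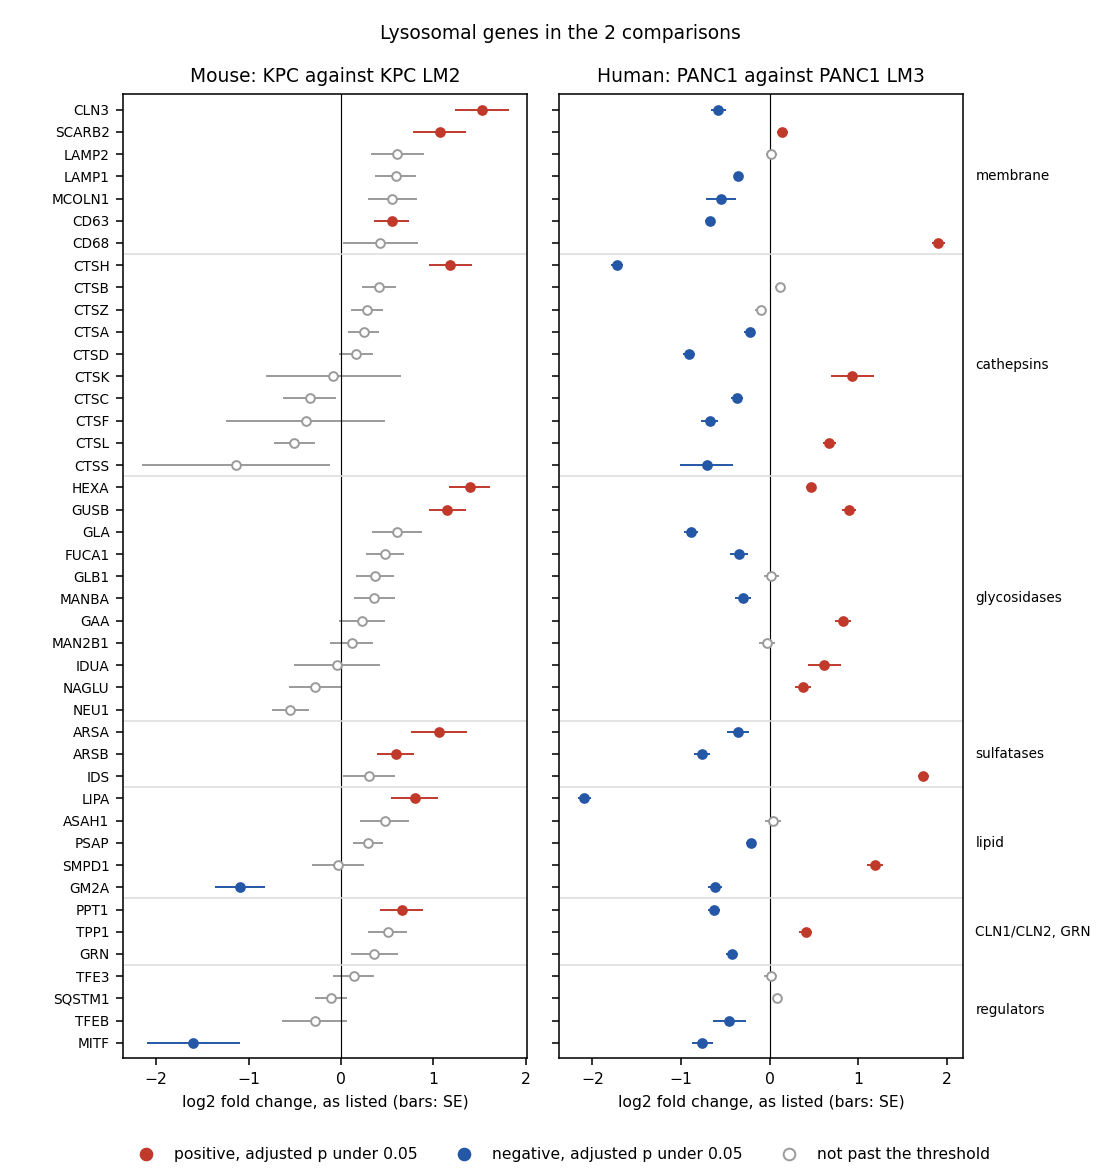
Log2 fold change as listed by the authors (horizontal axis, bars: SE) for each lysosomal gene, grouped by role, in the mouse model (left) and the human model (right). Filled red and blue points passed an adjusted p of 0.05. The 7 membrane genes all lie above 0 in KPC, as do 73.5% of all genes with a mean count of 64 or more. In PANC1 22 of 42 genes are blue, and 26.5% of all tested genes were called negative.

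**Figure D2:**
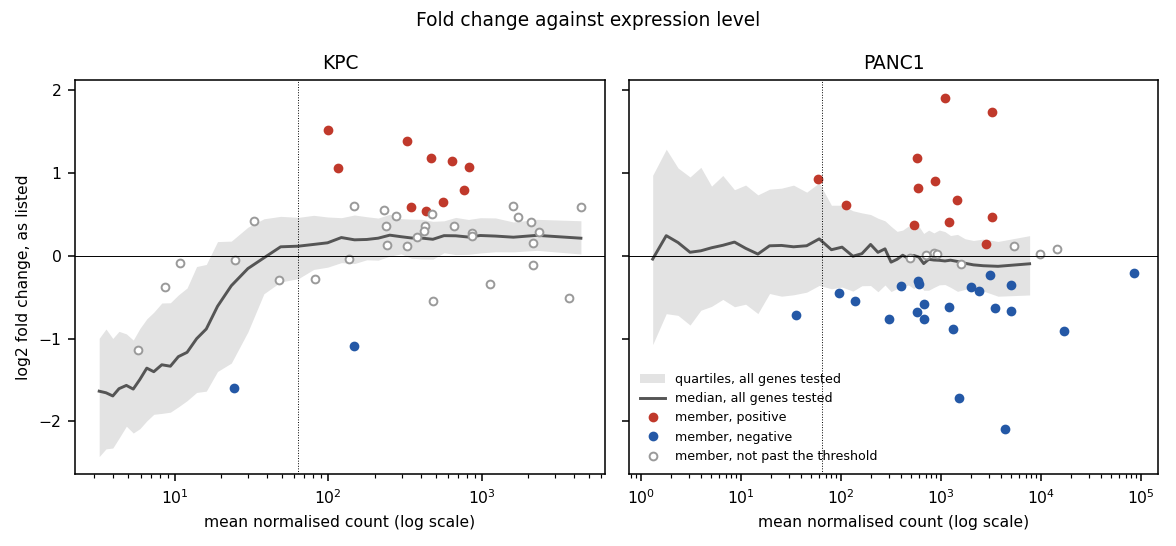
Log2 fold change as listed against mean count (log axis) for the lysosomal genes (points) over the median and quartiles of all tested genes in 40 bins of level (line and band). The dotted line marks 64; in KPC the line is below 0 at low levels and above 0 at high ones.

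The membrane genes were listed above 0 in KPC in all 7 cases, and 3 of them were called (42.9%). Of all genes with a mean count of 64 or more, 73.5% were above 0 and 10.6% were called positive. Cln3, whose loss causes juvenile Batten disease, had the most positive value of any member in the authors' deposited table, 1.53 ± 0.29 (mean count 100.2, adjusted p = 1.35e-05), or 2.88-fold. Scarb2, the receptor that carries beta-glucocerebrosidase to lysosomes, was at 1.07 ± 0.29 (825, adjusted p = 0.00556) in the authors' deposited table, and Cd63, a tetraspanin of late endosomes and exosomes, at 0.55 ± 0.19 (433, adjusted p = 0.0405). Both calls depended on centring: Scarb2 did not pass with the level trend subtracted, and Cd63 passed neither with it subtracted nor after recentring. The main glycoproteins of the lysosomal membrane did not pass, with Lamp1 at 0.59 ± 0.22 (adjusted p = 0.0603) and Lamp2 at 0.61 ± 0.29 in the authors' deposited table. Mcoln1, a cation channel of late endosomes and lysosomes, was at 0.56 ± 0.27 and Cd68, a membrane glycoprotein abundant in macrophages, at 0.43 ± 0.41 with a mean count of only 33.1 in the authors' deposited table.

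Of the 10 cathepsins, the lysosomal proteases, 1 was called in KPC. Ctsh, a cysteine protease with aminopeptidase activity, was at 1.18 ± 0.23 (466, adjusted p = 3.28e-05) in the authors' deposited table. The other cathepsins with a count above 64 had values on both sides of 0. They were 0.41 ± 0.18 for Ctsb, 0.28 ± 0.17 for Ctsz, 0.24 ± 0.17 for Ctsa, 0.16 ± 0.18 for Ctsd, -0.34 ± 0.29 for Ctsc and -0.51 ± 0.22 for Ctsl (adjusted p = 0.121) in the authors' deposited table. Ctsl, which encodes a cysteine endopeptidase, passed with a negative sign after recentring and after subtraction of the level trend, and Ctsd, the aspartic protease, changed to -0.06 and -0.10 there. Ctsk, Ctsf and Ctss were near the floor, with mean counts of 10.8, 8.71 and 5.75 in the authors' deposited table. Their SEs of 0.73, 0.86 and 1.02 leave their direction unresolved, and their signs turned positive when the level trend was subtracted.

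Enzymes that cut sugars from glycans and glycolipids gave 2 positive calls of 11 in KPC (18.2%), against 10.6% of genes with a mean count of 64 or more. Hexa, the alpha subunit of beta-hexosaminidase A, was at 1.39 ± 0.22 (325, adjusted p = 9.87e-08) and Gusb, beta-glucuronidase, at 1.15 ± 0.20 (639, adjusted p = 2.25e-06) in the authors' deposited table. Both passed under recentring and under subtraction of the level trend. The remaining values ran from 0.61 ± 0.27 for Gla, alpha-galactosidase A, through 0.48 ± 0.21 for Fuca1, 0.37 ± 0.20 for Glb1, 0.36 ± 0.22 for Manba, 0.22 ± 0.25 for Gaa and 0.12 ± 0.23 for Man2b1 to -0.28 ± 0.28 for Naglu in the authors' deposited table, and Man2b1 turned negative under both forms of centring. Neu1, the lysosomal sialidase, was at -0.55 ± 0.20 (adjusted p = 0.0545) in the authors' deposited table and passed with a negative sign after recentring, after subtraction of the trend, and among genes at 64 or more. Idua, which removes iduronic acid from heparan and dermatan sulfate, was at -0.04 ± 0.47 with a mean count of 24.6 in the authors' deposited table.

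The 3 sulfatases were all listed above 0 in KPC, 2 of them called (66.7%). Of all genes with a mean count of 64 or more, 73.5% were above 0 and 10.6% were called positive. Arsa, which acts on sulfatide, was at 1.06 ± 0.30 (115.5, adjusted p = 0.0095) and Arsb, which acts on dermatan and chondroitin sulfate, at 0.59 ± 0.20 (347, adjusted p = 0.0371) in the authors' deposited table. Ids, iduronate 2-sulfatase, was at 0.30 ± 0.28 in the authors' deposited table. Neither call held with the level trend subtracted, and Arsb also did not pass after recentring.

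Lipid enzymes and their activators gave 1 call in each direction of 5 in KPC (20.0% each). Among genes with a mean count of 64 or more 10.6% were positive and 2.11% negative. Lipa, the acid lipase that hydrolyses cholesteryl esters and triglycerides, was at 0.80 ± 0.25 (768, adjusted p = 0.0246) in the authors' deposited table, a call lost after recentring and after subtraction of the trend. Gm2a, the activator that presents GM2 ganglioside to beta-hexosaminidase A, was at -1.09 ± 0.27 (147, adjusted p = 0.0025) in the authors' deposited table, so the enzyme subunit Hexa and its activator were called with opposite signs. Asah1, acid ceramidase, was at 0.47 ± 0.26, Psap, the saposin precursor, at 0.29 ± 0.16 and Smpd1, acid sphingomyelinase, at -0.03 ± 0.28 in the authors' deposited table. Among 3 further soluble proteins, Ppt1, which removes palmitate from proteins, was at 0.66 ± 0.23 (558, adjusted p = 0.0487) in the authors' deposited table and passed neither after recentring nor with the trend subtracted. Tpp1, a tripeptidyl peptidase, was at 0.51 ± 0.21 and Grn, the progranulin gene, at 0.36 ± 0.26 in the authors' deposited table.

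Of the 3 transcription factors and the cargo receptor, 0 were called positive and 1 negative in KPC. Mitf was at -1.60 ± 0.50 (adjusted p = 0.0218) in the authors' deposited table with a mean count of 24.2, and the call was lost when the level trend was subtracted. Tfeb was at -0.29 ± 0.35 (47.9), Tfe3 at 0.14 ± 0.22 (240) and Sqstm1, the autophagy receptor p62, at -0.11 ± 0.17 (2161) in the authors' deposited table, and the sign of Tfe3 turned to -0.08 after recentring and -0.10 after subtraction of the trend. Of the 10 members with the TCACGTG core, 2 were called positive in KPC and 0 negative, and of the 30 without it 7 were called positive and 2 negative. Over all tested genes 5.77% were positive and 4.60% negative, and 10.6% and 2.11% of those with a mean count of 64 or more. Whether the motif goes with a call was not tested.

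Between PANC1 and PANC1 LM3, 12 of 42 lysosomal genes were called positive and 22 negative, and 8 were not called. Of the 17838 tested genes, 52.5% were called, 26.0% positive and 26.5% negative. Among genes with a mean count of 64 or more, 32.7% were positive and 36.5% negative, and of the 40 members at that level 11 were positive (27.5%) and 21 negative (52.5%). The members' median was -0.22, with quartiles of -0.61 and 0.32 and a median SE of 0.08, and all tested genes had a median of -0.00. SEs were smaller here than in KPC, with a median of 0.09 against 0.24 over genes at 64 or more, so a change of the same size passed more readily. With an absolute log2 fold change over 1 required, 3 members were positive (7.14%) and 2 negative (4.76%), near the 8.13% and 7.34% of all tested genes.

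CD68 had the most positive value of the membrane genes in PANC1. Of the 7, 4 were called negative (57.1%) and 2 positive (28.6%), against 36.5% and 32.7% of genes with a mean count of 64 or more. In the authors' deposited table CD68 was at 1.91 ± 0.07 (mean count 1103, adjusted p = 6.01e-152), or 3.75-fold. Of 20 macrophage and leukocyte markers, named for either species, 5 were tested in PANC1. Their mean counts in the authors' deposited table summed to 56.9, with CSF1R at 8.85, CD14 at 12.5 and PTPRC, which encodes CD45, at 2.26. The marker called among them (20.0%, against 52.5% of all tested genes) was ITGAM. It was listed at -0.92 ± 0.34 with a count of 28.5 in the authors' deposited table, the sign opposite to CD68. These values are for human gene symbols and need not measure host cells of another species. In KPC, 14 of the 20 were tested with a median level of 7.23 and a sum of 1654, of which Mrc1 made up 1073 and Cd14 471, while Ptprc was at 28.9 and Csf1r at 16.3 in the authors' deposited table. Adgre1, the macrophage marker F4/80, was the 1 marker of this list called in KPC, at -2.88 ± 0.75 with a count of 13.4 in the authors' deposited table.

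The other membrane genes in PANC1 moved less. SCARB2 was at 0.14 ± 0.06 (2789, adjusted p = 0.0431) in the authors' deposited table. CD63 was at -0.67 ± 0.05 (5052), CLN3 at -0.58 ± 0.09 (675), MCOLN1 at -0.55 ± 0.17 (139) and LAMP1 at -0.35 ± 0.05 (5054) in the authors' deposited table, and LAMP2 was at 0.02 ± 0.06 with an adjusted p of 0.805. The paired glycoproteins LAMP1 and LAMP2 thus had different values, 1 called and the other not, a difference that was not tested.

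Of the 10 cathepsin genes in PANC1, 6 were called negative (60.0%) and 2 positive (20.0%). Over all tested genes 26.5% were negative and 26.0% positive, and 36.5% and 32.7% of those with a mean count of 64 or more. CTSH stood out at -1.72 ± 0.07 (1510, adjusted p = 3.34e-149) in the authors' deposited table, or 3.29-fold. CTSD was at -0.91 ± 0.07 (16842), CTSF at -0.68 ± 0.10 (575), CTSC, the dipeptidyl peptidase that activates granule serine proteases, at -0.37 ± 0.07 (1978) and CTSA, the carboxypeptidase that protects GLB1 and NEU1, at -0.23 ± 0.06 (3076) in the authors' deposited table. CTSS, a cathepsin of antigen-presenting cells, was at -0.71 ± 0.30 (adjusted p = 0.036) with a mean count of 35.4 in the authors' deposited table, beside the macrophage marker levels above; their part in the CTSS and CD68 values was not tested. The positive cathepsins were CTSK, the collagen-degrading protease of osteoclasts, at 0.93 ± 0.24 (58.6) and CTSL at 0.67 ± 0.07 (1446) in the authors' deposited table. CTSB was at 0.12 ± 0.06 (5370, adjusted p = 0.0732) and CTSZ at -0.10 ± 0.06 (1599) in the authors' deposited table, and the sign of CTSZ turned with the level trend subtracted.

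Glycosidases were the role with more positive than negative calls in PANC1, 5 against 3 of 10. GUSB was at 0.90 ± 0.08 (869), GAA, which degrades glycogen, at 0.83 ± 0.09 (589), IDUA at 0.62 ± 0.19 (112.4), HEXA at 0.47 ± 0.06 (3263) and NAGLU, which acts on heparan sulfate, at 0.38 ± 0.09 (532) in the authors' deposited table. Negative calls were GLA at -0.88 ± 0.08 (1323), FUCA1, the fucosidase, at -0.34 ± 0.10 (597) and MANBA, beta-mannosidase, at -0.30 ± 0.09 (586) in the authors' deposited table. In the authors' deposited table GLB1, beta-galactosidase, was at 0.02 ± 0.08 and MAN2B1, alpha-mannosidase, at -0.03 ± 0.09, a sign that turned after recentring. Some of these values carry uncertainty from near copies and neighbours. The table holds 9 GUSB pseudogenes with mean counts from 5.67 to 253, of which 3 were positive and 1 negative, and the counting could split reads among them. GLA overlaps HNRNPH2, listed at 0.23 ± 0.15, and IDUA overlaps SLC26A1, listed at -0.36 ± 0.26, in the authors' deposited table, and the use of strand in counting is not given in the sources used here.

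Sulfatases and lipid enzymes held the most positive and the most negative value of the hydrolases in PANC1. IDS was at 1.73 ± 0.06 (3233, adjusted p = 1.26e-171), or 3.33-fold, against -0.76 ± 0.09 (676) for ARSB and -0.36 ± 0.12 (399) for ARSA in the authors' deposited table. IDS and IDUA act in successive steps of heparan and dermatan sulfate breakdown, and both were positive. LIPA had the most negative value of all members in the authors' deposited table, -2.09 ± 0.07 (4338, adjusted p = 2.36e-178), or 4.27-fold. SMPD1 was at 1.19 ± 0.09 (577), GM2A at -0.62 ± 0.08 (1213) and PSAP at -0.21 ± 0.05 (85762) in the authors' deposited table, while ASAH1 was at 0.04 ± 0.09 and not called. Of the remaining soluble proteins PPT1 was at -0.63 ± 0.07 (3449), GRN at -0.42 ± 0.07 (2418) and TPP1 at 0.41 ± 0.07 (1203) in the authors' deposited table.

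Among the regulators in PANC1, MITF was at -0.76 ± 0.11 (304, adjusted p = 2.17e-10) and TFEB at -0.45 ± 0.19 (95.8, adjusted p = 0.0292) in the authors' deposited table. TFE3 was at 0.01 ± 0.08 (709) and SQSTM1 at 0.09 ± 0.05 (14490) in the authors' deposited table. The call for TFEB was lost with a t distribution of 4 degrees of freedom, as were those for CTSK, IDUA, SCARB2, CTSS, ARSA, MANBA, MCOLN1, FUCA1 and CTSA, which left 9 positive (21.4%) and 15 negative members (35.7%), against 17.0% and 18.5% of all genes.

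Set side by side, 42 members were tested in both models and 12 were called in both. HEXA, GUSB and SCARB2 were positive in both tables, and GM2A and MITF negative in both. CLN3, CTSH, LIPA, CD63, PPT1, ARSA and ARSB were positive in KPC and negative in PANC1, and 0 members had the reverse pattern as listed. Over all matched genes the split leaned the same way, with 411 positive in KPC and negative in PANC1 and 145 the reverse. Every one of the 12 members called in KPC was called in PANC1 too, 22 were called in PANC1 alone and 8 in neither. Over the 12777 genes matched by symbol, 972 were called in both, 522 in KPC alone, 6850 in PANC1 alone and 4433 in neither. Opposite signs made up 58.3% of the members called in both, and 57.2% of all matched genes called in both, so the share of opposite signs was near that of all genes; called in both with opposite signs were 4.35% of the matched genes. Because the numerators are not named, same and opposite hold only for the signs as listed. The pattern also depended on centring. The KPC calls of LIPA, CD63, PPT1 and ARSB were lost under both forms of centring. Those of ARSA, SCARB2 and MITF were lost with the level trend subtracted. CTSL, called positive in PANC1, passed with a negative sign in KPC under both forms.

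**Figure D3:**
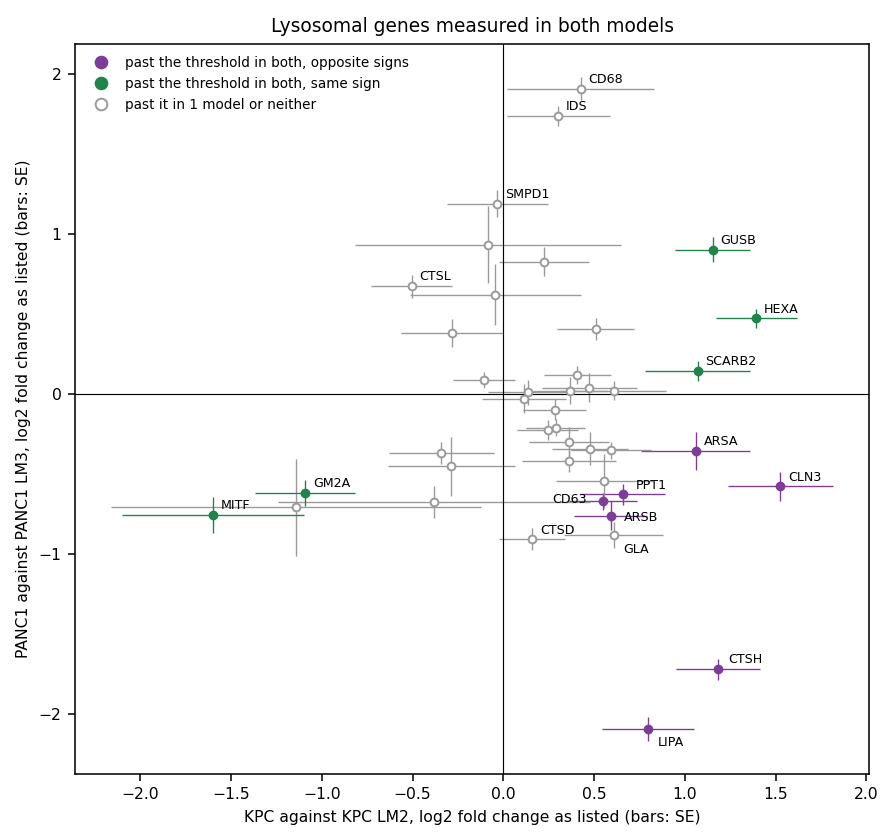
Log2 fold change as listed in KPC (horizontal axis) against that in PANC1 (vertical axis) for the 42 lysosomal genes tested in both, with bars of 1 SE. Names mark genes called in both models and other genes that differ between them with an absolute PANC1 value over 0.6; 7 genes (purple) are at the lower right and 5 (green) share a sign.

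The difference of the 2 fold changes, tested with a normal reference and adjusted over all 12777 matched genes, passed for 22 of 42 members, 18 with the more positive value in KPC and 4 with it in PANC1; over all matched genes 34.9% passed. It assumes that both tables have the same numerator, and with opposite numerators 14 members passed (33.3%), near the 30.0% of all matched genes. The split by sign also depended on centring: after recentring, and likewise with the level trend subtracted, 13 members had the more positive value in KPC and 8 in PANC1. All matched genes went from 2839 and 1614 to 1777 and 2373 after recentring. CTSH and LIPA had the largest differences, 2.90 ± 0.24 and 2.89 ± 0.26, followed by CLN3 at 2.10 ± 0.30. On the other side were CD68 at -1.48 ± 0.41, IDS at -1.43 ± 0.29, SMPD1 at -1.22 ± 0.29 and CTSL at -1.18 ± 0.24. GUSB, positive in both, differed by 0.25 ± 0.22 (adjusted p = 0.387), and the GM2A values differed by -0.47 ± 0.29 (adjusted p = 0.193). HEXA and SCARB2 had the same sign in both models and still differed in size, by 0.92 ± 0.23 and 0.93 ± 0.29.

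The acidification machinery was also listed mostly above 0 in KPC. Of 17 tested genes of the vacuolar H+-ATPase and its accessory proteins, 94.1% were above 0, 5 were called positive (29.4%) and 0 negative, and the median was 0.58. Genes with a mean count of 64 or more were also mostly above 0 (73.5%), with 10.6% called positive and a median of 0.22. Atp6v0a2 was at 1.15 ± 0.20, Atp6v0e2 at 1.20 ± 0.27, Atp6v1a, the catalytic subunit, at 0.81 ± 0.19 and Atp6v1d at 0.77 ± 0.22 in the authors' deposited table. In PANC1 4 of 18 were positive (22.2%) and 8 negative (44.4%), with a median of -0.23. Among genes at 64 or more 32.7% were positive and 36.5% negative, with a median of -0.03. There the authors' deposited table gave ATP6V1A at -0.79 ± 0.07 and the accessory subunit ATP6AP1 at -0.78 ± 0.06, and ATP6V0E1 at -0.52 ± 0.06 and ATP6V1C1 at -0.37 ± 0.06. On the positive side of the authors' deposited table were ATP6V1D at 0.40 ± 0.06, ATP6V1B2 at 0.34 ± 0.09, ATP6V0E2 at 0.32 ± 0.09 and ATP6V1E1 at 0.31 ± 0.06.

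Delivery of the hydrolases had 1 large change in KPC. Igf2r, the cation-independent mannose 6-phosphate receptor and an imprinted gene, was at -3.31 ± 0.24 (386, adjusted p = 1.83e-39) in the authors' deposited table, while the cation-dependent receptor M6pr was at 0.29 ± 0.21 and not called. Sumf1, which activates all sulfatases, was at 0.58 ± 0.19 in the authors' deposited table. Igf2r and Sumf1 were the 2 calls among 13 genes of sorting and activation (15.4%), near the 12.7% of genes with a mean count of 64 or more. In PANC1 the receptors had other values, with IGF2R at 0.01 ± 0.05 (9087, adjusted p = 0.932) and M6PR at 0.43 ± 0.06 in the authors' deposited table. Of the 13 genes 2 were positive there (15.4%) and 7 negative (53.8%), against 32.7% and 36.5% of genes at 64 or more. GGA1, a Golgi adaptor, was at 0.68 ± 0.09 in the authors' deposited table, and the negative calls included SORT1, the sorting receptor sortilin, at -0.996 ± 0.109. GNPTAB, which starts the mannose 6-phosphate tag, was at -0.55 ± 0.07, SUMF1 at -0.52 ± 0.10 and the retromer gene VPS35 at -0.39 ± 0.06 in the authors' deposited table.

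Hydrolases and activators outside the 43 members gave 3 positive (12.5%) and 0 negative calls of 24 in KPC. The positive share was near the 10.6% of genes with a mean count of 64 or more, with 5.77% over all tested genes. In PANC1 5 of 25 were positive (20.0%) and 13 negative (52.0%), against 32.7% and 36.5% of genes at 64 or more. The KPC calls were Ctso at 1.48 ± 0.30, Aga, which cuts the link of glycans to asparagine, at 1.01 ± 0.30 and Galc, galactosylceramidase, at 0.90 ± 0.20 in the authors' deposited table. The PANC1 values in the authors' deposited table were -1.66 ± 0.11 for CTSV, -1.10 ± 0.10 for SGSH and -0.9996 ± 0.0973 for HYAL2. The positive ones were 0.39 ± 0.10 for DPP7, 0.38 ± 0.10 for AGA, 0.24 ± 0.09 for GALC and 1.55 ± 0.58 for ACP5, the last with a mean count of 10.7 in the authors' deposited table. AGA and GALC were therefore positive in both tables.

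Other lysosomal membrane genes gave 3 positive (17.6%) and 1 negative call (5.88%) among 17 in KPC, against 10.6% and 2.11% of genes with a mean count of 64 or more. In PANC1 4 of 18 were positive (22.2%) and 6 negative (33.3%), against 32.7% and 36.5%. LAMP3, a LAMP family member of dendritic cells that is also induced in tumours, was at 3.94 ± 0.12 (544, adjusted p = 3.34e-219) in the authors' deposited table for PANC1, while Lamp3 in KPC was at -2.76 ± 0.77 with a mean count of 10.03. All tested KPC genes in the bin of level with a median count of 10.6 had a median of -1.22, with quartiles of -1.83 and -0.47. The cholesterol exporter gene Npc1 was at 0.81 ± 0.25 in KPC and NPC1 at 0.16 ± 0.06 in PANC1 in the authors' deposited tables. The channel gene Tpcn1 was at 0.63 ± 0.19 in KPC and TPCN1 at -0.47 ± 0.07 in PANC1 in the authors' deposited tables. Laptm4a was at 0.88 ± 0.30 in KPC in the authors' deposited table. For PANC1 the authors' deposited table gave TMEM192 at 1.21 ± 0.10, the sialic acid exporter SLC17A5 at 0.55 ± 0.08, LAPTM4B at -0.50 ± 0.06, TPCN2 at -0.40 ± 0.11 and OSTM1 at -0.34 ± 0.06. Of the cathepsin inhibitors 0 of 3 were called in KPC, with 0 at an unadjusted p under 0.05, and 1 of 4 in PANC1, CSTA, at 2.34 ± 0.47 with a count of 18.8 in the authors' deposited table.

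Genes of nutrient sensing and of autophagy had more positive than negative calls in PANC1. Among PANC1 genes with a mean count of 64 or more, 32.7% were positive and 36.5% negative. Genes of nutrient sensing at the lysosomal surface, which place the kinase MTOR on the lysosome, gave 6 positive (42.9%) and 3 negative calls (21.4%) of 14 in PANC1. The small GTPase RRAGA was at 0.96 ± 0.11, the Ragulator subunits LAMTOR5 and LAMTOR3 at 0.47 ± 0.08 and 0.42 ± 0.09 and FLCN at 0.24 ± 0.07 in the authors' deposited table. The Ragulator anchor LAMTOR1 was at -0.92 ± 0.08, FNIP2 at -0.34 ± 0.10 and MTOR at -0.23 ± 0.06 in the authors' deposited table. In KPC 1 of 15 was called (6.67%), Lamtor4 at 1.02 ± 0.26 in the authors' deposited table, against 10.4% of all tested genes. Autophagy genes were positive in 12 (60.0%) and negative in 3 (15.0%) of 20 in PANC1. The ATG8 family genes GABARAPL1, MAP1LC3B and MAP1LC3A were listed as 1.59 ± 0.08, 1.52 ± 0.08 and 1.38 ± 0.13 in the authors' deposited table, and the cargo receptor NBR1 at 0.55 ± 0.06. Another cargo receptor, CALCOCO2, was at -1.44 ± 0.06, BECN1 at -0.53 ± 0.09 and TAX1BP1 at -0.34 ± 0.06 in the authors' deposited table. In KPC 3 of 20 autophagy genes were positive (15.0%) and 0 negative, near the 10.6% and 2.11% of genes at 64 or more. They were Optn at 0.61 ± 0.17, Uvrag at 0.60 ± 0.20 and Gabarap at 0.58 ± 0.17 in the authors' deposited table.

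**Figure D4:**
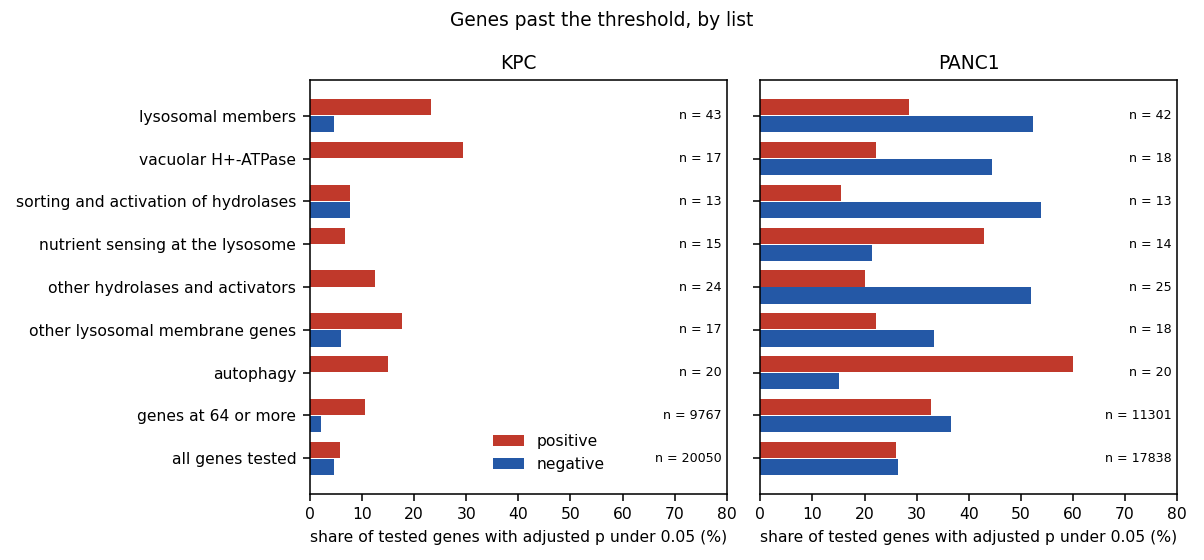
Share of tested genes called positive (red) and negative (blue), in percent, for the lysosomal members, 6 related gene lists, genes with a mean count of 64 or more, and all tested genes, in KPC (left) and PANC1 (right); n is the number tested. In KPC the members reach 23.3% positive, and in PANC1 the members reach 52.4% negative while autophagy genes reach 60.0% positive.

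Markers of stroma and vessels were low in KPC, with mean counts of at most 41.4 for fibroblast and stellate and 30.7 for endothelial markers. Of the 9 fibroblast and stellate markers tested in KPC, 1 was called (11.1%), near the 10.4% of all tested genes. It was Col1a1, at -1.84 ± 0.63 with a mean count of 19.9 in the authors' deposited table. All tested KPC genes in the bin of level with a median count of 19.0 had a median of -0.61. Of 8 endothelial markers 0 were called, with 2 at an unadjusted p under 0.05. In PANC1, where values are for human gene symbols and need not measure a host of another species, fewer markers were tested. They were 3 of 12 hepatocyte, 7 of 9 fibroblast and stellate and 3 of 8 endothelial markers. Of these, 33.3% of the hepatocyte, 14.3% of the fibroblast and stellate and 33.3% of the endothelial markers were called, against 52.5% of all tested genes. The called markers were COL3A1 at 1.05 ± 0.11 (405), CPS1 at -1.45 ± 0.18 (132) and CDH5 at -4.09 ± 0.95 (9.89) in the authors' deposited table. Their part in the lysosomal values was not tested.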

How the data were processed

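Libraries of 12 samples were made with the TruSeq RNA kit that the labels' protocols name. STAR 2.7.6a, featureCounts 2.0.0, MultiQC 1.9, DESeq2 1.24 and the builds mm39 and hg19 are named in the submitters' processing notes. The mean normalised count is a signal the authors deposited, headed baseMean per the file headers. Fold changes and SEs were deposited by the authors on the log2 scale. A score, the Wald statistic, was deposited by the authors and equalled the fold change over its SE within 9.17e-08. Deposited p-values equalled the normal p within 7.33e-08, and adjusted p-values the Benjamini-Hochberg adjustment within 2.50e-06. A further deposited column, a signed transform of p, was not used. An adjusted p was given from a mean normalised count of 3.08 upwards in KPC and 1.08 upwards in PANC1. The files hold comparisons, so the count test foreseen for counts per library was not run and depth per sample is unknown. Nothing says that replicates came from separate animals, so p-values may cover technical spread only.

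The members and lists were chosen with earlier results of these data known. Every called member is named, and from each of 11 related lists (163 genes) up to 4 called genes per direction with the smallest adjusted p, of which 1 is not reported here; IGF2R in PANC1, M6pr in KPC, keratins, EPCAM and uncalled host markers were named after their values were seen. The difference between models is that of the fold changes over the root of the summed squared SEs. Promoters came from RefSeq (GRCm38.p6), another build than that of the counts. Alternatives were the stricter adjusted p of 0.01, a minimum absolute log2 fold change of 1, adjustment over all p-values, genes at 64 or more, recentring on those, subtraction of a running median (501 genes), the t distribution with 4 degrees of freedom, opposite numerators and a shorter motif. Steps were tested on simulated data. Scripts ran in Python 3.11.15 with pandas 2.3.3, scipy 1.17.1, numpy 2.4.6 and, for figures, matplotlib 3.10.9.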

Additional observations from a re-analysis of the deposited data

Results flagged for a closer look

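The fold change of 22 of 42 members differed between the 2 models by a test of the difference itself, which holds if both tables have the same numerator. The test was adjusted by Benjamini-Hochberg over all matched genes, of which 34.9% passed. As listed, 18 members had the more positive value in KPC and 4 in PANC1. After recentring, and likewise with the level trend subtracted, these counts were 13 and 8. Values are the log2 fold change in KPC minus that in PANC1. The proteases and the serine carboxypeptidase gave 2.90 for CTSH, 1.07 for CTSD, 0.47 for CTSA and -1.18 for CTSL. Membrane genes gave 2.10 for CLN3, 1.22 for CD63, 1.10 for MCOLN1, 0.94 for LAMP1, 0.93 for SCARB2 and -1.48 for CD68. Among glycosidases the differences were 1.49 for GLA, 0.92 for HEXA, 0.82 for FUCA1 and 0.66 for MANBA. Sulfatases gave 1.42 for ARSA, 1.35 for ARSB and -1.43 for IDS. Lipid enzymes and activators gave 2.89 for LIPA, 0.50 for PSAP and -1.22 for SMPD1, and the other soluble proteins 1.29 for PPT1 and 0.78 for GRN. No single sample could be looked at, since no value per library was in the columns used.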

How the results depend on the processing

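No paired analysis was possible because the columns used here hold no value per library, and for the same reason no replicate was left out and neither a count test nor another normalisation of counts was run. In KPC, an adjusted p of 0.01 called 7 members, 6 positive (14.0%) and 1 negative (2.33%), against 2.93% and 1.51% of all genes. A minimum absolute log2 fold change of 1 left 6 positive (14.0%) and 2 negative (4.65%), against 2.40% and 4.10% of all genes. The negative share was near that of all genes there. Recentring gave 6 positive and 4 negative, and subtraction of the level trend gave 7 (4 positive). A t distribution with 4 degrees of freedom gave 0 in all, 0 positive and 0 negative. Recentring ended the calls of Lipa, Arsb, Cd63 and Ppt1, subtraction of the trend ended these and Scarb2, Arsa and Mitf, and adjustment over all p-values ended that of Ppt1. In PANC1, a minimum of 1 left 5 members (3 positive, 2 negative), and the median moved from -0.22 to -0.12 with the trend subtracted; CTSB and SQSTM1 became positive calls under both forms of centring, and CTSA and PSAP were lost with the trend subtracted. With opposite numerators 14 members differed between models; under recentring and under subtraction of the trend 21 did, 13 positive and 8 negative in each, against 18 and 4 as listed. Signs turned, after recentring, for Ctsd (-0.0599), Tfe3 (-0.0815) and Man2b1 (-0.10) in KPC, MAN2B1 (0.0028) in PANC1, and the differences between models of TPP1 (-0.15), TFE3 (-0.12), MAN2B1 (-0.11), TFEB (-0.0843) and CTSC (-0.22). They turned, with the trend subtracted, for Ctsd (-0.10), Tfe3 (-0.10), Man2b1 (-0.12), Idua (0.29), Ctsk (1.15), Ctsf (0.97) and Ctss (0.44) in KPC, CTSZ (0.0040) in PANC1, and the differences of GUSB (-0.0089), TPP1 (-0.16), CTSB (-0.0768), TFE3 (-0.14), MAN2B1 (-0.12), CTSK (0.37), CTSS (1.27) and CTSC (-0.28). None of the values whose sign turned had passed the threshold as listed. The causes were not tested. The 7 members under a mean normalised count of 64 in KPC had SEs from 0.35 to 1.02, and 6 of them showed no detectable change.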
